A study of Mus musculus with 31 samples.

Results

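The Usp17l and Tdpoz genes of the 2-cell mouse embryo were taken as every row of the deposited count table whose gene symbol starts with Usp17l or Tdpoz, which gave 12 of 20544 genes, 5 Usp17l genes (Usp17la, Usp17lb, Usp17lc, Usp17ld and Usp17le) and 7 Tdpoz genes (Tdpoz1, Tdpoz2, Tdpoz3, Tdpoz4, Tdpoz5, Tdpoz7 and Tdpoz8). Their RNA was counted in 31 libraries, each made by Smart-seq3 from 1 whole embryo, with 16 control- and 15 SER-generated embryos. SER, sperm energy restriction and recovery, is a treatment in which sperm were kept in a medium without glucose and pyruvate until they stopped moving and then received both nutrients again, while control sperm from the other cauda epididymis stayed in complete medium. Sperm came from C57BL/6J males aged 12 to 14 weeks and oocytes from superovulated CD1 females aged 8 to 10 weeks, so that all embryos shared this cross, in vitro fertilization with 4 h of coincubation, and collection at 32 h after insemination. The labels do not tie an embryo to its male, its dish or its batch, and the p-values below measure the spread between embryos.

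Usp17l genes encode small deubiquitinating enzymes of the USP class, which remove ubiquitin from other proteins, and several of them were first described as DUB genes that cytokines induce in blood cells. Tdpoz proteins join a TRAF-like MATH domain to a POZ (BTB) domain, the same domain plan as SPOP, an adaptor that brings proteins to the CUL3 ubiquitin ligase. Both families are arrays of related copies and are known for a short burst of transcription around the 2-cell stage, when the mouse embryo activates its own genome, together with Zscan4 and other genes bound by the transcription factor DUX.

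The 5 Usp17l genes lay on chromosome 7 within chr7:103249737-104862667 and the 7 Tdpoz genes on chromosome 3 within chr3:93068823-94072644 (GRCm38, GENCODE vM21), spans of 1.61 Mb and 1.00 Mb. All 12 were annotated as protein-coding. Tdpoz2, Tdpoz3, Tdpoz4, Tdpoz5 and Tdpoz7 each had a single exon, and Tdpoz7 and Tdpoz8 stood under their older names Gm10697 and Gm4858. The bases just before the start of 3 Usp17l and 2 Tdpoz genes are shown because they hold short motifs shared by several copies of one family and not found in the other (RefSeq, GRCm38.p6, 5′ to 3′ on the strand of the gene). Capitals mark TATAAA and CCACACCC in the Usp17l genes and TATATAA and TAATCC in the Tdpoz genes.
Usp17lb, chr7:104842584-104842753, minus strand: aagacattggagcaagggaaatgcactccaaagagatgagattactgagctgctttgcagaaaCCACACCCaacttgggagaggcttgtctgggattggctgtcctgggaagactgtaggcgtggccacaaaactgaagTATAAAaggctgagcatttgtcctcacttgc
Usp17lc, chr7:103416526-103416695, plus strand: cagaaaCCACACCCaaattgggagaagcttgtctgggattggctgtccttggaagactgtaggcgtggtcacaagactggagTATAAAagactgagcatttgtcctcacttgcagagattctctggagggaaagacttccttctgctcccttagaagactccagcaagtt
Usp17la, chr7:104856846-104857015, plus strand: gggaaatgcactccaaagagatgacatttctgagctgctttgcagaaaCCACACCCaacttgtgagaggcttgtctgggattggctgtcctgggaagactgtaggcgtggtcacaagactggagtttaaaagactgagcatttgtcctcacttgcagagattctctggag
Tdpoz8, chr3:93068653-93068822, plus strand: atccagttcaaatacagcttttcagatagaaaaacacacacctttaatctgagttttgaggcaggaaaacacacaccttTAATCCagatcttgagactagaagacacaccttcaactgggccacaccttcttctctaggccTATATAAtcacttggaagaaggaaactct
Tdpoz1, chr3:93676284-93676453, minus strand: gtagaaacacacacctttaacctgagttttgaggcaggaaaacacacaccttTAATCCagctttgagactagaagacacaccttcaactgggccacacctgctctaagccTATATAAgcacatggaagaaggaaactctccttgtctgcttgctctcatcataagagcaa

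A RefSeq promoter window was found for 9 of the 12 genes. The windows of Usp17la, Usp17lb, Usp17lc and Usp17ld were between 92.1% and 97.4% identical in pairs over the bases that aligned. The CACCC box CCACACCC, read on both strands, occurred in all 4 of these windows and in 3.57% of the 32544 promoter windows of the same length in the table. The TATA box TATAAA occurred in 3 of the 4, not in that of Usp17la, and in 13.6% of all windows. In Usp17lb it began 31 bases before the annotated start, against 88 bases in Usp17lc and 110 bases in Usp17ld. In all 3 it lay at the same distance from CCACACCC, so that these distances depend on where the start was annotated. The first window of Tdpoz8 and that of Tdpoz1 were 91.3% identical over 254 aligned bases, and these 2 of the 6 Tdpoz windows held both TATATAA, found in 3.22% of all windows, and TAATCC, a letter pattern read by OTX- and CRX-type homeodomain factors, found in 7.06%. The motifs do not overlap each other in these sequences. The windows of Tdpoz4, Tdpoz5 and Tdpoz7 held none of these 4 motifs, and the annotated start of these 3 genes lay directly at an ATG. The window of Tdpoz4 was 96.9% identical over 293 aligned bases to the second window of Tdpoz8, not to its first. Whether transcription of these genes starts further upstream was not tested. A match describes a sequence and not a site of binding.

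Sequence shared with other genes limited how much of each gene could be counted. The longest transcripts were between 91.0% and 97.9% identical in pairs among the Usp17l genes (median 93.5%, 10 pairs) and between 81.3% and 100% among the Tdpoz genes (median 84.7%, 21 pairs). The longest run of bases that every member of a family carried, inside the coding sequence of each, is given here because a read that falls inside it could come from any of them.
Usp17l, 63 bases in all 5 genes: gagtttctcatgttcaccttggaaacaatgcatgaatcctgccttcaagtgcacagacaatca
Tdpoz, 36 bases in all 7 genes: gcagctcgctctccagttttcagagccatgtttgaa

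The reads were 45 bases (read 1) and 30 bases (read 2) long, and the share of 30-base stretches of each gene that occurred in no other annotated transcript was taken as a description of the sequence that a uniquely placed read could use. This share was highest for Tdpoz8 (75.7%), Usp17lb (68.2%), Usp17la (59.6%) and Usp17le (49.7%). It was 40.6% for Tdpoz1, 38.2% for Usp17lc, 34.1% for Tdpoz4, 33.2% for Usp17ld, 32.6% for Tdpoz2 and 23.9% for Tdpoz3. Tdpoz5 and Tdpoz7 had no unique stretch among 994 each, and their annotated transcripts were 100% identical to each other.

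Tdpoz5 and Tdpoz7 were listed at 0 in all 31 embryos. With no unique 30-base stretch, a count of 0 for these 2 genes cannot be told apart from reads that were not placed, and they carry no value below. The study states that only uniquely mapped reads were kept for the 5′ reads, while how reads with several positions were treated among the internal reads is not given in the sources used here. Reads from sequence shared between genes may therefore be split or lost, and the level of each single gene is uncertain to that extent. Usp17lc and Usp17ld, which shared 51.3% of the stretches of Usp17lc and 62.2% of those of Usp17ld, are the pair of counted members closest to each other. Other members shared most with annotated genes that are not in the count table under these names. The shares were 76.1% for Tdpoz3 (Gm4982), 58.5% for Tdpoz1 (Gm9117), 57.3% for Tdpoz2 (Gm5773), 50% for Tdpoz4 (Gm5541) and 20.5% for Usp17lb (Gm5053).

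**Figure D1:**
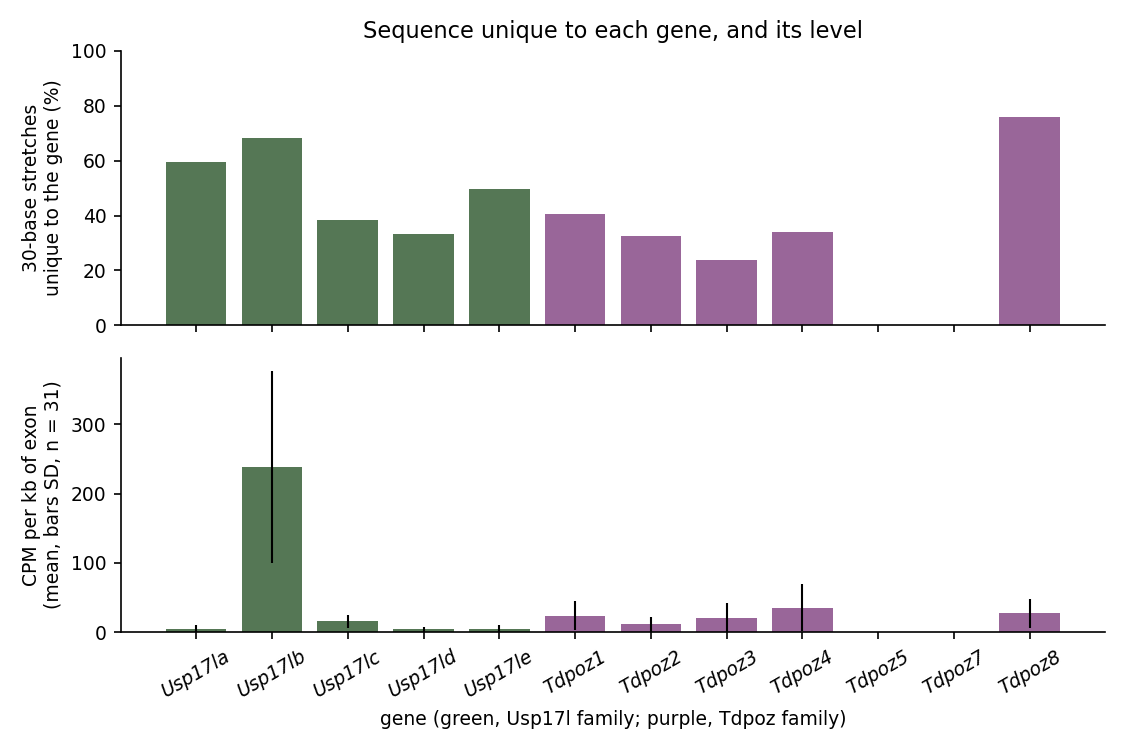
Share of 30-base stretches found in no other annotated transcript (upper panel, percent) and level of each gene as CPM per kb of exon (lower panel, bars are the mean over 31 embryos and lines the SD). Tdpoz5 and Tdpoz7 have no unique stretch and no count, and Usp17lb stands above the other genes at 238 CPM per kb.

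Counts on genes ranged from 532945 to 3088396 per embryo, with a median of 955806 in control- and 1375557 in SER-generated embryos, and levels are given as CPM, counts scaled to the library total, on which 3 counts correspond to between 0.971 and 5.63 CPM. Such floors cover counting error only, since internal reads carry no molecular identifier. The 2-cell identity of the libraries was seen in 17 counted genes of a list of 2-cell burst genes, whose summed level was 516 to 2841 CPM in 29 embryos, and the defining markers of other cells were low, with medians over all embryos of 2.18 CPM for 8 cumulus cell genes, 2.23 CPM for 5 sperm genes and 3.75 CPM for 5 macrophage genes. Ptx3 of the cumulus, Prm1 of sperm and Adgre1 of macrophages each had a median of 0 CPM over the 29 embryos. Other genes of these lists were counted more widely, with medians of 2.23 CPM for Prm2 of sperm and 2.29 CPM for Cd68 of macrophages. Highest were control 5 for cumulus genes (127 CPM) and SER 13 for sperm (30.9 CPM) and macrophage genes (152 CPM), and their part in any result was not tested.

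2 embryos stood apart, control 4 (662768 counts) and SER 15 (2567720 counts). Control 4 held 2 counts of Usp17l genes, both of Usp17ld, and none of Tdpoz genes. SER 15 held 32 counts of Usp17l genes (13 of Usp17la, 17 of Usp17le and 2 of Usp17ld), none of Usp17lb or Usp17lc and none of Tdpoz genes. In the other 29 embryos, the summed Usp17l level was never under 151 CPM and the summed Tdpoz level never under 21.8 CPM, and these floors belonged to SER 10 and SER 8. A count of 0 allowed up to 4.53 CPM in control 4 and up to 1.17 CPM in SER 15.

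Several other transcripts of the same period, but not all, were low in the same 2 embryos. The summed oocyte transcripts of both were above the median of the other 29. Of the 17 counted 2-cell burst genes, 8 were below every other embryo in both, with a summed level of 199 CPM in control 4 and 455 CPM in SER 15. Of 10 genes of major zygotic activation, 7 were below every other embryo in both, among them Obox6, a homeobox gene, at 0 CPM in both against at least 64.3 CPM elsewhere, and Kdm5b, an H3K4 demethylase, at 21.1 and 26.5 CPM against at least 143 CPM. The summed level of this list was nevertheless 1907 and 2248 CPM, within the 1488 to 5014 CPM of the others, and Klf17 alone held 1830 and 2151 CPM of it. The summed oocyte transcripts reached 4670 CPM in control 4 and 6915 CPM in SER 15, against a median of 1828 CPM in the other 29. The highest of those was 6129 CPM, in control 3, so that control 4 lay within their range. Of 11 counted oocyte transcripts, 3 in control 4 and 7 in SER 15 were above all of the other 29.

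Across the table, 6295 genes had a count in each of the other 29 embryos, and 219 of them (3.48%) had none in both control 4 and SER 15. Among the members, 6 had a count in each of the 29, and 4 of these (Usp17lb, Usp17lc, Tdpoz4 and Tdpoz8) had none in both. Usp17lb ranked 8th of the 219 by its mean level in the 29 embryos. Both embryos also formed a group of their own when embryos were divided into 3 clusters by variable genes that were not members. Results that rest on these 2 embryos are given with and without them, and their place was not used to form a group.

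Usp17lb carried most of the signal of both families. Of 28677 counts on all members, 70.4% were on Usp17l genes, and 84.6% of the Usp17l counts were on Usp17lb. In control-generated embryos the level of Usp17lb was 0 CPM at the lowest, 291 CPM at the median and 851 CPM at the highest (345 ± 204 CPM, SD, n = 16), and in SER-generated embryos 0, 460 and 729 CPM (402 ± 231 CPM, SD, n = 15). The lowest embryos were control 4 and SER 15, without which the lowest were 152 CPM in control 5 and 126 CPM in SER 10. Over the 29 embryos the highest level was 6.77 times the lowest, and the ranges of the groups overlapped throughout.

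Usp17lc was the next of its family. It ranged from 0 over a median of 33.2 to 61.5 CPM in control-generated (32.8 ± 12.5 CPM, SD, n = 16) and from 0 over 52.1 to 91.3 CPM in SER-generated embryos (44.8 ± 28.4 CPM, SD, n = 15). Without control 4 and SER 15 it lay between 20.1 and 61.5 CPM in the former and between 9.60 and 91.3 CPM in the latter, so that the SER-generated embryos reached beyond the control-generated ones at both ends. Per kb of exon its mean was 15.7 CPM, below that of Usp17lb in every embryo in which either was counted.

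The remaining Usp17l genes were low. Usp17le had a count in all embryos but control 4, with a lowest, median and highest level of 0, 7.42 and 38.0 CPM in control- and 1.52, 8.00 and 31.7 CPM in SER-generated embryos. Usp17la ranged from 0 over 15.2 to 34.4 CPM in control- and from 0 over 5.06 to 74.3 CPM in SER-generated embryos, and it was absent from control 4 and from 3 SER-generated embryos. Its highest value came from SER 13, the embryo with the most sperm and macrophage transcripts. Usp17ld was the only member with a count in all 31 embryos, at 0.628 to 26.3 CPM, and it failed the filter on low counts that the test below applies.

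Among the Tdpoz genes no single copy took the lead. Tdpoz8 had the most counts of the family in 14 of the 29 embryos with any, Tdpoz1 in 12 and Tdpoz4 in 3. Per kb of exon, the order was Tdpoz4 (35.3 ± 33.9 CPM per kb, SD, n = 31), Tdpoz8 (27.2 ± 20.9 CPM per kb), Tdpoz1 (24.2 ± 20.4 CPM per kb), Tdpoz3 (20.0 ± 22.6 CPM per kb) and Tdpoz2 (11.7 CPM per kb). Each SD was close to or above its mean, and neighbours in this order did not differ beyond their spread. Tdpoz4 was above Tdpoz8 in 17 embryos and below it in 12.

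Tdpoz4 ranged from 0 over a median of 29.6 to 109.8 CPM in control-generated embryos and from 0 over 39.4 to 179.8 CPM in SER-generated embryos. Tdpoz8 ranged from 0 over 48.3 to 134 CPM in the former and from 0 over 41.3 to 180.3 CPM in the latter. Tdpoz1 ranged from 0 over 36.8 to 187 CPM and from 0 over 50.4 to 154 CPM. For all 3 the groups overlapped, although SER 1 alone lay above every control-generated embryo for Tdpoz4, and SER 1 and SER 3 did for Tdpoz8. SER 1 held the highest value of Tdpoz4 and Tdpoz8, control 2 that of Tdpoz1.

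Tdpoz3 and Tdpoz2 were more often missing. Tdpoz3 had no count in control 4 and in 4 SER-generated embryos and reached 112 CPM in control 8, while Tdpoz2 had none in control 4 and in 2 SER-generated embryos and reached 44.3 CPM in SER 1. When all libraries were thinned to 532945 counts, the total of the shallowest, a count of Tdpoz3 was found in 26 and one of Tdpoz2 in 28 embryos, the same numbers as before. Thinning lowered the number of embryos with a count from 31 to 27 for Usp17ld, from 30 to 27 for Usp17le and from 27 to 25 for Usp17la. The other counted members kept their numbers. Without thinning, 23 of 31 embryos held a count of each of the 10 counted members, a number that depends on depth through these 3 genes.

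**Figure D2:**
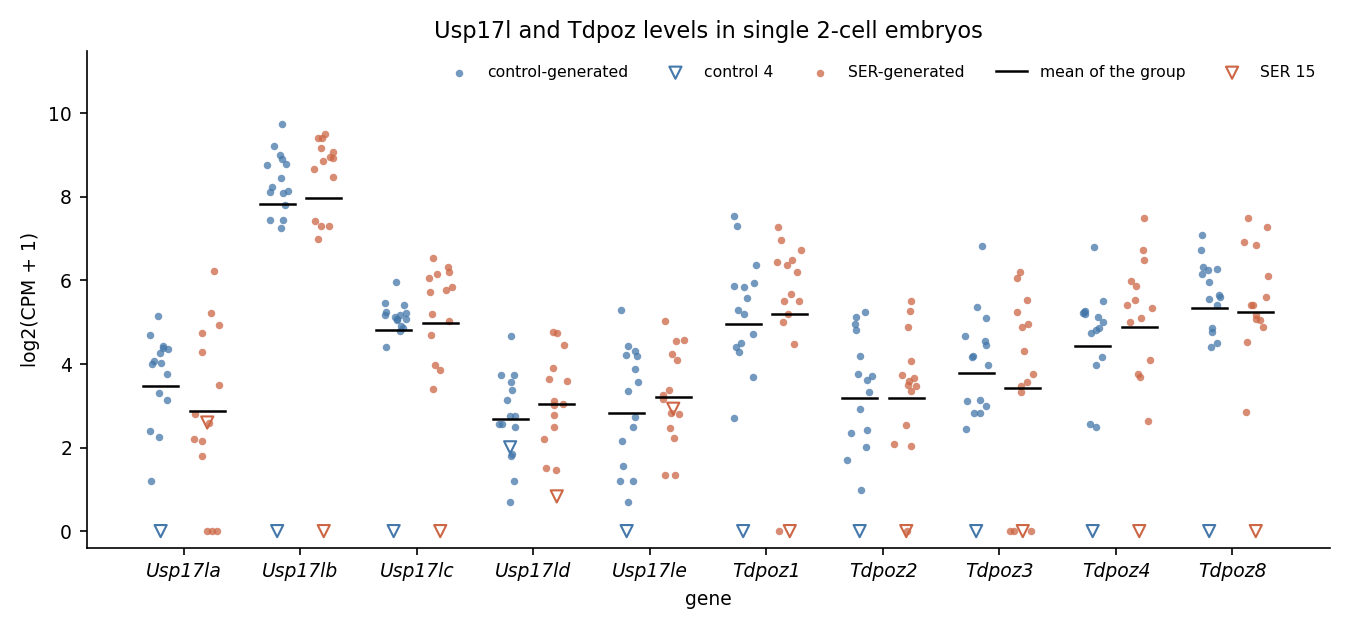
Level of the 10 counted genes in each embryo, as log2(CPM + 1) on the vertical axis, with 1 point per embryo (blue, 16 control-generated; orange, 15 SER-generated) and a bar at the mean of the group. Open triangles mark control 4 and SER 15, which lie at 0 for Usp17lb, Usp17lc and all Tdpoz genes.

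Across both families, the order by level per kb of exon was Usp17lb, Tdpoz4, Tdpoz8, Tdpoz1, Tdpoz3, Usp17lc, Tdpoz2, Usp17le, Usp17la and Usp17ld. Usp17lb was above Tdpoz4 in 29 of 31 embryos, by 2.79 ± 1.30 on the scale of log2(CPM per kb + 1) (SD, n = 31), and both were at 0 in the other 2. Each later step in this order was smaller than its SD across embryos, from Tdpoz4 against Tdpoz8 (0.21 ± 0.85) to Usp17la against Usp17ld (0.06 ± 1.78). When the level was divided by the number of unique 30-base stretches in place of exon length, Usp17lb and Tdpoz4 stayed first and second, Tdpoz3 moved from place 5 to 3 and Tdpoz8 from place 3 to 7. The place of Tdpoz8 and Tdpoz3 therefore depends on which length is used.

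Usp17lb led its family in both groups, while the Tdpoz counts were spread over several copies. In embryos with at least 10 counts on the family, Usp17lb made up 81.9 ± 7.23% of the Usp17l counts in control-generated (SD, n = 15) and 77.6 ± 21.9% in SER-generated embryos (SD, n = 15), the latter with SER 15 at 0%, and its medians were 79.5% and 82.6%. Usp17lc followed with 9.49 ± 4.63% and 8.63 ± 3.71%. In the Tdpoz family, Tdpoz8 made up 34.8 ± 10.6% in control- (n = 15) and 28.5 ± 6.84% in SER-generated embryos (n = 14), Tdpoz1 27.9 ± 12.9% and 30.1 ± 12.8%, and Tdpoz4 17.7 ± 6.74% and 24.7 ± 13.0%. The groups overlapped in the share of each of these genes, and the widest gap among the Tdpoz genes, for Tdpoz4, was a little over 1 SD of the control- and under 1 SD of the SER-generated embryos.

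**Figure D3:**
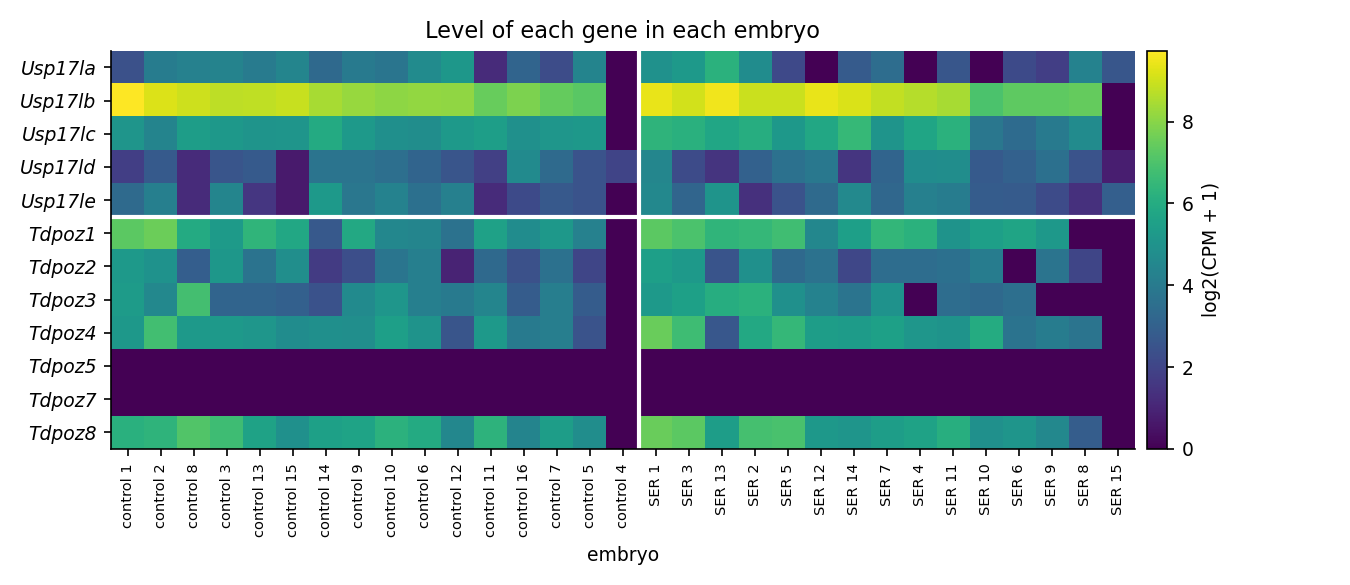
Level of each of the 12 genes (rows) in each embryo (columns) as colour, in log2(CPM + 1), with embryos of each group ordered from left to right by the summed level of all members. The last column of each group, control 4 and SER 15, is dark in nearly every row, and Tdpoz5 and Tdpoz7 are at 0 throughout.

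SER-generated embryos were set against control-generated ones to ask whether the sperm treatment changed these transcripts in the 2-cell embryo. The level of no member differed between the groups beyond the spread between embryos. Of 8571 genes kept by the filter on low counts, 9 were members (all but Usp17ld, Tdpoz5 and Tdpoz7), and the edgeR quasi-likelihood test, adjusted over all 8571 by Benjamini-Hochberg, called 0 members at an adjusted p under 0.1, where it called 0% of all genes. Its estimate was higher in SER-generated embryos for 8 of the 9, with a median log2 fold change of 0.12, against 4515 of all 8571 genes and a median of 0.02. At an unadjusted p under 0.05 it had 0 of the 9 members and 491 of all genes. DESeq2 called 49 genes and limma voom with sample quality weights 848, and neither called a member. DESeq2 gave no adjusted p for Usp17la, Usp17le and Tdpoz2, so it could not have called these genes.

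Tdpoz4 had the largest estimate of a member, a log2 fold change of 0.62 ± 0.51 (SE) with a 95% interval from -0.41 to 1.65 and a Benjamini-Hochberg adjusted p of 0.936 in the edgeR fit. Usp17lc followed with 0.42 ± 0.42 (interval from -0.43 to 1.26, adjusted p = 0.958). The abundant Usp17lb had 0.16 ± 0.47, with an interval from -0.79 to 1.12 that holds both a fall and a rise of more than 1.5-fold, so that these data do not show equal levels either. The other estimates were 0.22 for Tdpoz1, 0.12 for Tdpoz8, 0.10 for Tdpoz3, 0.08 for Usp17la, 0.06 for Usp17le and -0.10 for Tdpoz2.

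When all 17803 genes with any count were fitted, edgeR called 0 of 10 members, where it called 0.792% of all genes higher and 2.04% lower in SER-generated embryos. Usp17ld, tested only there, stood at 0.48 ± 0.54 on the log2 scale (SE, adjusted p = 0.803). The smallest adjusted p of a member was 0.680, that of Tdpoz4. Without control 4 and SER 15, a choice made after seeing the data, 0 of 10 members were called in this fit and 0 of 9 after the filter. The estimate of Usp17lb then was 0.19 ± 0.28 (interval from -0.38 to 0.75) and that of Tdpoz4 0.64 ± 0.40 (from -0.17 to 1.45), so that the intervals narrowed around nearly the same values.

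**Figure D4:**
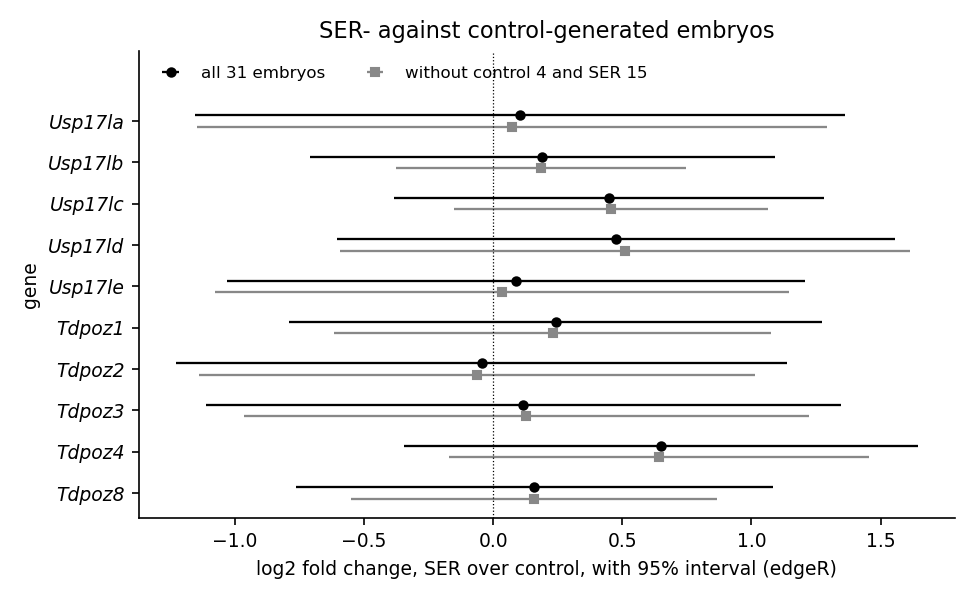
Log2 fold change of SER- over control-generated embryos for the 10 counted genes, from edgeR's fit of all genes with a count, with lines for the 95% interval. Black circles are all 31 embryos and grey squares leave out control 4 and SER 15, and all 20 intervals include 0.

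Summed over a family, the difference between the groups was smaller than the spread between embryos of a group, which does not show equal levels. The Usp17l genes summed to 409 ± 210 CPM in control-generated (SD, n = 16) and 482 ± 273 CPM in SER-generated embryos (SD, n = 15), and to 436 ± 186 and 516 ± 249 CPM without control 4 and SER 15. The Tdpoz genes summed to 172 ± 117 and 209 ± 165 CPM, and to 183 ± 112 and 224 ± 161 CPM without these 2 embryos. On the scale of log2(CPM + 1), SER minus control was 0.23 for Usp17l and 0.13 for Tdpoz, against SDs within groups of 1.66 and 2.12. Without control 4 and SER 15 it was 0.15 and 0.17, against SDs of 0.75 and 1.05, and without control 4 alone it turned to -0.19 and -0.33. Library totals were higher in SER-generated embryos, and with the log2 library total as a covariate the estimate was higher in SER-generated embryos for 4 of the 9 members in place of 8.

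The dispersion of the members, the variation between embryos of a group beyond counting error as edgeR estimates it, stood between percentile 59.4 (Usp17lc) and percentile 96.5 (Tdpoz3) of the 8571 genes that passed the filter, and between percentile 28.6 (Usp17lc) and percentile 48.8 (Tdpoz3) of the 17803 genes with a count, so that their place depends on which genes they are set beside. In the fit of all genes with a count, the dispersion of Usp17lb fell from 0.720 to 0.287 (percentile 36.3 to 15.0) when control 4 and SER 15 were left out and that of Tdpoz8 from 0.729 to 0.429, while that of Usp17la went from 1.26 to 1.12. The 2 embryos thus held more of the variation of Usp17lb and Tdpoz8 than of Usp17la.

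Levels of the copies went together within the Tdpoz family more than within the Usp17l family. After the means of the groups were subtracted, the 10 pairs of Tdpoz genes had Spearman correlations over the 31 embryos between 0.44 and 0.82 (median 0.64), and between 0.33 and 0.78 (median 0.57) over the 29 without control 4 and SER 15. The highest pair was Tdpoz4 with Tdpoz8, whose longest transcripts were 93.9% identical over 723 aligned bases. Tdpoz8 shared 17.5% of its 30-base stretches with Tdpoz4. Usp17lc and Usp17ld, which shared more, had a correlation of 0.14. The part of shared reads in these values was not tested. The 10 pairs of Usp17l genes ran from -0.23 to 0.60 (median 0.29), with Usp17lb and Usp17lc at the top, and from -0.34 to 0.50 (median 0.24) in the 29. All values are descriptions across embryos that differ in depth and came from several batches, and members with few counts limit them. No embryo's batch is labelled, and the part of batch in these correlations was not tested.

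The 2 families also went together. The summed Usp17l level had a Spearman correlation with the summed Tdpoz level of 0.66 over the 31 embryos and of 0.61 over the 29. Usp17lb, which makes up most of the former, had correlations with the 5 counted Tdpoz genes of 0.50 to 0.66 (0.39 to 0.59 in the 29). With the library total the correlation was 0.49 for Usp17l and 0.25 for Tdpoz (0.60 and 0.32 in the 29), so that Usp17l levels were also higher in the deeper libraries. The part of depth or batch in the relation of the families was not tested.

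The summed 2-cell burst genes had a correlation of 0.81 with either family over the 31 embryos, and of 0.80 with Usp17l and 0.75 with Tdpoz over the 29. Zfp352, a zinc finger gene of this burst, stood at 0.61 with the Usp17l and 0.68 with the Tdpoz sum, and Tmem92, a transmembrane protein gene, at 0.52 and 0.80. Zscan4d, the Zscan4 copy with the highest level, stood at 0.31 with Usp17l and at -0.09 with Tdpoz. Its level was 84.9 CPM in SER 15 and 4.53 CPM in control 4, so that it was not low in both of the embryos that lacked Usp17lb. Dux itself had no count in 21 of the 31 embryos.

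**Figure D5:**
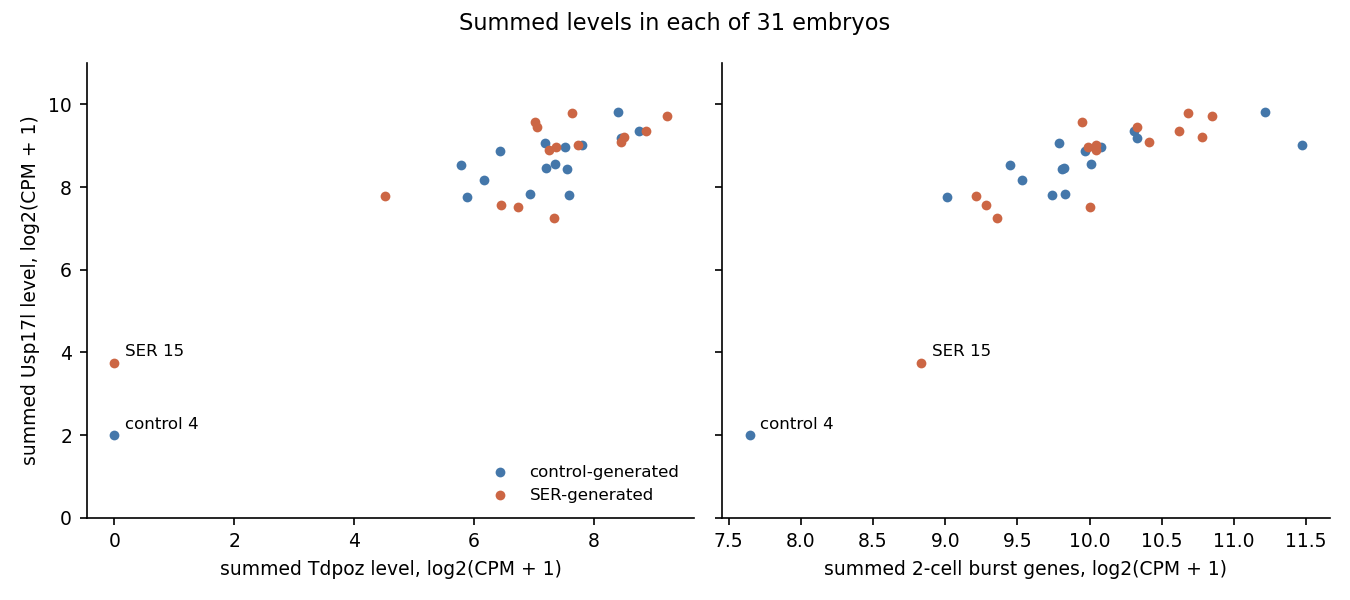
Summed level of the 5 Usp17l genes in each embryo (vertical axis) against the summed level of the Tdpoz genes (left) and of the 2-cell burst genes (right), all as log2(CPM + 1), with blue for control- and orange for SER-generated embryos. Control 4 and SER 15 lie apart at the lower left of both panels, and the other 29 embryos of both groups mix.

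The genes whose levels were most like the Usp17l sum, out of 8562 genes that passed the filter and are no members, were Zfp54 (Spearman correlation of 0.82 over 31 and 0.80 over 29 embryos), Sp140 (0.78 and 0.75), Rimklb (0.77 and 0.77), Dcc (0.75 and 0.70) and LOC105246046 (0.74 and 0.70). Zfp54 encodes a zinc finger protein and Sp140 a nuclear body protein, and Zfp54 was at 0 CPM in both control 4 and SER 15. At the other end were Wdr5, a subunit of histone methyltransferase complexes (-0.75 and -0.70), the ubiquitin ligase gene Rnf168 (-0.74 and -0.68), the presenilin gene Psen2 (-0.73 and -0.68), Dlgap2 (-0.72 and -0.65) and the histone methyltransferase gene Suv39h2 (-0.72 and -0.68).

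The genes most like the Tdpoz sum were Rbsn, which acts in endosome fusion (0.90 and 0.88), the F-box gene Fbxo15 (0.89 and 0.86), Zfp458 (0.89 and 0.87), Rsrc2 (0.87 and 0.83) and Trim43b, a 2-cell gene of the tripartite motif class (0.86 and 0.83). Zfp458 and Trim43b were at 0 CPM in both control 4 and SER 15, like the Tdpoz genes. Lowest were Ciapin1, which acts in iron-sulfur protein assembly (-0.88 and -0.86), Ywhae (-0.84 and -0.81), Pgs1 (-0.83 and -0.80), Gch1 (-0.82 and -0.79) and the oocyte homeobox gene Lhx8 (-0.81 and -0.78). The correlations with the highest and lowest genes were a little smaller over the 29 embryos in all 10 of these cases.

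The lists of related genes showed no called change between the groups after the filter. Of the SPOP-type adaptors and CUL3 components, 23 of 26 in the table were tested, with 0 called by edgeR, 10 estimates higher, a median log2 fold change of -0.08 and 3 at an unadjusted p under 0.05. Cul3, the scaffold of the ligase, averaged 342 ± 398 CPM (SD, n = 16) in control- and 369 ± 302 CPM (SD, n = 15) in SER-generated embryos, and its correlation with the Tdpoz sum was 0.86 over 31 and 0.84 over 29 embryos. It was at 13.6 CPM in control 4 and at 3.89 CPM in SER 15, against at least 61.0 CPM elsewhere. Cand1, which exchanges the adaptors of such ligases, had a correlation of 0.84 with the Tdpoz sum and was estimated at 0.41 ± 0.20 on the log2 scale between the groups (SE, edgeR, Benjamini-Hochberg adjusted p = 0.869). Spopfm2, an SPOP-like gene of the same domain plan as Tdpoz, was at 0 CPM in control 4 and SER 15, had at least 1.56 CPM elsewhere, and stood at 0.86 with the Tdpoz sum (0.82 in the 29), while Kbtbd8 stood at 0.16, Klhl12 at -0.57 and Kctd13 at -0.62.

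Genes reported as substrates of the human USP17 or DUB3 enzymes were tested in 5 of 6 cases, with 0 called, 2 estimates higher and a median log2 fold change of -0.05. Among them, Cdc25a, the phosphatase that drives cell cycle entry, averaged 48.2 ± 29.5 (SD) and 40.1 ± 18.9 CPM in the control and SER groups and had a correlation of -0.44 with the Usp17l sum. Snai1, Suds3 and Elk1 lay between 0.05 and 0.19. These are levels of RNA, and the enzymes act on protein.

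Of the 2-cell burst genes 15 of 18 in the table were tested, with 0 called, 9 estimates higher and a median log2 fold change of 0.20. Of the genes of major zygotic activation 9 of 10 were tested, with 0 called, 4 estimates higher, a median of -0.02 and 1 at an unadjusted p under 0.05 (Klf17, 0.50 ± 0.20, SE, adjusted p = 0.731 by edgeR with Benjamini-Hochberg adjustment). Of the oocyte transcripts 10 of 11 were tested, with 0 called, 3 estimates higher and a median of -0.16. None of the cumulus cell, sperm and macrophage genes passed the filter. In the fit of all genes, 1 of the 8 cumulus cell genes (Inhba) was called lower in SER-generated embryos, where 2.04% of all genes were. Of the 5 sperm genes, 1 (Smcp) was called higher, where 0.792% of all genes were. Inhba had no count in 21 and Smcp none in 28 of the 31 embryos, so that both calls rest on few embryos.

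Most other genes of the count table found by name within the spans of the families had few or no counts, with Trim6 and Tchh as the main exceptions. Inside the span of the Usp17l genes, 80 other genes were in the table, 61 of them olfactory receptor genes, and 46 had no count in any embryo. A mean level of at least 1 CPM was found for 4 of the 80, Trim6 (21.2 CPM), Trim30a (5.77 CPM), Olfr654 (1.32 CPM) and Trim12c (1.19 CPM). Trim6, a tripartite motif ubiquitin ligase gene, had a correlation with the Usp17l sum of -0.19 over 31 and -0.44 over 29 embryos, and stood at 3.02 CPM in control 4 and at 0 CPM in SER 15, against at least 2.93 CPM elsewhere.

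Inside the span of the Tdpoz genes, 8 other genes were in the table and 3 had a mean of at least 1 CPM, Tchh (41.5 CPM), S100a10 (1.17 CPM) and Tchhl1. Tchh, which encodes the hair follicle protein trichohyalin, was at 1.51 CPM in control 4 and at 0 CPM in SER 15, against a median of 43.4 CPM in the other 29, and its correlation with the Tdpoz sum was 0.40 over 31 and 0.28 over 29 embryos. Tchh was estimated 0.44 ± 0.58 higher in SER-generated embryos on the log2 scale (SE), with an adjusted p of 0.968 (edgeR, Benjamini-Hochberg). A library is a whole embryo, so for all these genes fewer cells with the transcript and less RNA per cell cannot be told apart.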

How the data were processed

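Single 2-cell embryos (16 control- and 15 SER-generated) were profiled by Smart-seq3. The authors separated 5′ reads with a molecular identifier from internal reads, aligned them with STAR, collapsed duplicates (UMI-tools for the former, Picard for the latter) and counted reads with featureCounts. The deposited values are whole-number counts for 20544 genes, without normalization. The submitters' processing notes name mm10, STAR, Picard, featureCounts and DESeq2, with versions not given in the sources used here. The study corrected batches with ComBat-seq, which could not be repeated because no embryo's batch is labelled.

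The counts of the groups were tested against each other with glmQLFit and glmQLFTest of edgeR 4.0.16 in R 4.3.3 after TMM scaling, without covariates, and p-values were adjusted by Benjamini-Hochberg over all genes tested, at the study's threshold of 0.1. Genes were kept by filterByExpr (minimum count 10, minimum total count 15), and a second fit took all 17803 genes with a count. SEs are the estimate divided by the square root of F. CPM used each library's total. Correlations are Spearman's, on log2(CPM + 1) after subtracting group means. Transcripts and coordinates are GENCODE vM21 on GRCm38, and promoters RefSeq GRCm38.p6. Alternatives were DESeq2 size factors, no filter, DESeq2 1.42.0, limma voom 3.58.1, the library total, estimated clusters, a replicate block, pseudocounts, thinning and leaving out embryos. The fits were tested on simulated data.

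Members and gene lists were chosen with earlier results of these data known. All members were named, with full ranges for up to 3 per family by mean CPM per kb, and beside them the 5 genes most and the 5 least like each family sum, up to 5 genes per list by mean CPM, and genes of a list past the threshold. Spopfm2 and the genes low in control 4 and SER 15 were picked after their values were seen. Duplicated libraries were looked for, and 0 pairs were identical. 1 gene of a list is not reported here.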

Additional observations from a re-analysis of the deposited data

How the results depend on the processing

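No member was called under any alternative run. DESeq2 could not call Usp17la, Usp17le and Tdpoz2 in either fit, nor Usp17ld in the fit of all genes, since it gave them no adjusted p. The smallest adjusted p of a member was 0.217 (Usp17la, limma voom). The calls over all genes differed between the alternatives. After the filter, edgeR called 0 genes with TMM, with DESeq2 size factors, with the library total as a covariate, with the replicate block and without any 1 embryo, against 504 without the filter, 49 by DESeq2, 848 by limma voom with sample quality weights and 41 with 3 estimated clusters as a batch term. The fit of all genes called 504 genes, 45 by DESeq2, 274 with the library total as a covariate, 7 with the replicate block, and 326 (without control 5) to 570 (without SER 15) with 1 embryo left out. The cause of these differences was not tested.

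Estimates of Usp17lc, Tdpoz1 and Tdpoz4 kept their direction under all alternatives run. That of Usp17ld did so under the alternatives of the fit of all genes. These did not include limma voom, estimated clusters or DESeq2 size factors. Others changed sign without a call. With limma voom the log2 fold change was -1.36 for Usp17la, -0.033 for Usp17le, 0.10 for Tdpoz2 and -0.70 for Tdpoz3. With the library total as a covariate it was -0.28 for Usp17la, -0.16 for Usp17lb, -0.37 for Usp17le and -0.24 for Tdpoz3, and -0.26, -0.14, -0.36 and -0.24 in the fit of all genes. With the replicate block it was -0.66 for Usp17la, -0.19 for Tdpoz3 and -0.21 for Tdpoz8, and in the fit of all genes -0.65 for Usp17la, 0.028 for Tdpoz2, -0.17 for Tdpoz3 and -0.19 for Tdpoz8. The labels do not say whether the replicate numbers pair the embryos. The deviations of same-numbered embryos correlated by -0.35 to 0.48 over 15 pairs, 8 of them above 0.1. For 2 of the SER-generated embryos, the control-generated embryo most like it had the same number.

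Leaving out 1 embryo gave -0.43 to 0.23 for Usp17la (lowest without SER 13), -0.019 to 0.14 for Usp17le (10 of 31 fits, since it did not pass the filter in the others), -0.36 to 0.11 for Tdpoz2, -0.14 to 0.53 for Tdpoz3 and -0.084 to 0.25 for Tdpoz8, and in the fit of all genes -0.39 to 0.26, -0.12 to 0.35, -0.31 to 0.19, -0.13 to 0.57 and -0.058 to 0.30. The difference of the family sums ran from -0.19 to 0.56 for Usp17l and from -0.33 to 0.62 for Tdpoz with 1 embryo left out, lowest without control 4 and highest without SER 15, and was 0.15 and 0.17 without both. Depth limits the low members most, with 3 counts worth up to 5.63 CPM, and unplaced reads of identical copies are not in the counts.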
